A study of Mus musculus with 12 samples.

Results

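Adhesion and mesenchymal transition genes were followed as 10 genes chosen by name, namely Cdh1, Epcam and Cldn6 for epithelial contacts, Cdh2, Vim and Fn1 for the mesenchymal side, and Snai1, Snai2, Zeb1 and Twist1 for the transcription factors between them. These were 10 of the 26061 genes in the expression table, and all 10 were among the 14185 genes tested. The cells were mouse embryonic stem cells (ESCs) in which Tet2 had been knocked out. A PiggyBac vector then returned either WT TET2 or a catalytic mutant of TET2, an enzyme that oxidises methylated cytosine, and every culture was infected with the shSetdb1 lentivirus, which targets the H3K9 methyltransferase SETDB1. Puromycin at 1 µg/ml was added after 48 hours and the cells were collected 3 days later. Each rescue line was grown without feeders on gelatin, either in 2i with LIF, where inhibitors of MEK and GSK3β hold ESCs in the naïve state, or in 15% serum with LIF, where ESCs are termed primed. This gave 4 groups of 3 libraries each, namely WT naïve, mutant naïve, WT primed and mutant primed. Both rescues were single stable lines, no line with an empty vector and no shRNA control was analysed here, and so the values compare media and rescue lines after SETDB1 depletion. Whether the 3 libraries of a group came from separate cultures was not stated in the labels, so the p-values measure the spread between these libraries, which may be technical.

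In an epithelium, E-cadherin (Cdh1) binds its like on the neighbouring cell and is tied to actin through catenins, while EpCAM and claudins hold membranes together at the lateral and tight junctions. In the epithelial-mesenchymal transition of gastrulation, factors of the SNAI, ZEB and TWIST families bind E-boxes and repress Cdh1, and cells take up N-cadherin (Cdh2), vimentin (Vim) and fibronectin (Fn1). Mouse ESCs grow as compact E-cadherin-positive colonies and also transcribe Vim.

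The libraries held 8066662 to 21335933 gene reads, and libraries of one group differed by more than sampling noise, so that none was counted as a repeat of another. Setdb1 lay between 7.46 and 8.55 on the deposited log2 scale over the 12 libraries, with no untreated library for reference. Its means were 7.82 in WT and 7.69 in mutant naïve ESCs, and 8.27 and 8.11 in primed ESCs. The media overlapped in both lines. Tet2 was read in every library and was higher in the WT than in the mutant line, by 2.16 in naïve (adjusted p = 0.0154, limma) and by 1.84 in primed ESCs (adjusted p = 0.0297), so the rescue lines differ in transcript level as well as in the mutation. Tet2 was also lower in naïve than in primed ESCs, without overlap in either line. Its means were 13.27 and 14.83 in the WT and 11.12 and 12.99 in the mutant line, naïve first. The Y-linked genes summed to 370 to 468 RPM (reads scaled to library size) in WT and 163 to 238 in mutant naïve ESCs. In primed ESCs they summed to 267 to 354 in WT and 107 to 186 in the mutant line. Of these 4 genes, Ddx3y was higher in the WT line in naïve and in primed ESCs (adjusted p = 0.0440 and 0.00885, limma). Kdm5d passed in primed ESCs only (adjusted p = 0.0124, limma). The part of these differences in the member values was not tested. Both ESC markers Pou5f1 and Sox2 were read in all 12 libraries, and the ESC marker list summed to 4712 to 6212 RPM. Its 10 genes were not uniform between media. In each line 1 was higher and 4 were lower in naïve ESCs, beside 18.6% and 17.3% of all genes in the WT and 18.3% and 16.9% in the mutant line. Among the lower ones by reads, Lin28a had 137 to 631 in naïve and 1427 to 4638 in primed libraries. Of 8 fibroblast markers, Col1a2, Col3a1, Dcn and Postn had 0 reads in all 12 libraries, and the list summed to 5.75 to 8.38 RPM in naïve and 2.48 to 4.94 in primed ESCs, mostly from Thy1 and Lum.

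Promoter sequence was available here from RefSeq for 5 of the 10 genes (Epcam, Cldn6, Snai1, Vim and Twist1). The 150 bases that end at the start of transcription (build GRCm38.p6, plus strand) are shown for Epcam, Cldn6 and Snai1, the members that were higher in primed ESCs of both lines and that hold an E-box of the kind SNAI and ZEB factors bind, written CAGGTG or, on the opposite strand, CACCTG. Capitals mark that E-box.
Epcam, chr17:87635829-87635978: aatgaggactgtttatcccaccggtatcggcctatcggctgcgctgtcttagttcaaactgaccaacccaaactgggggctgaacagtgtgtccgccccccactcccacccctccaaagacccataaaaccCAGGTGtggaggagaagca
Cldn6, chr17:23679215-23679364: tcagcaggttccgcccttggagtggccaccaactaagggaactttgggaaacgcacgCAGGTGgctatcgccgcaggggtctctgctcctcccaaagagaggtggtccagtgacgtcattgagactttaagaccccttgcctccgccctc
Snai1, chr2:167538045-167538194: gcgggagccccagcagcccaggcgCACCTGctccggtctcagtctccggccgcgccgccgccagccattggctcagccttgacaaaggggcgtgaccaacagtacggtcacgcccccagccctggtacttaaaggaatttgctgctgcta
The E-box began 19 bases before the start in Epcam, 93 in Cldn6 and 126 in Snai1, and Epcam held another 187 bases before it, outside the sequence shown, and Cldn6 another after the start. Neither Vim nor Twist1 held it. Of all 32851 RefSeq promoters, 20.2% held the motif in the window of 300 bases around the start, so its presence in 3 of 5 members is a description and not a binding site.

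Across the groups the 10 genes fell into an abundant and a scarce class. Levels of different genes were compared per length, as RPKM (reads per kilobase of exon, scaled to the gene reads of the library). Epcam was the highest member in all 4 groups, at 195 ± 2.48 (SD, n = 3) in WT naïve, 187 ± 27.2 in mutant naïve, 273 ± 17.7 in WT primed and 274 ± 29.8 in mutant primed ESCs, and its libraries did not overlap those of the next gene in any group. Vim followed at 107 ± 23.7, 82.0 ± 21.4, 96.4 ± 18.2 and 71.3 ± 4.84 in the same order of groups. Cdh1 stood at 103 ± 19.0, 104 ± 16.3, 79.5 ± 4.94 and 64.2 ± 5.51, and Vim and Cdh1 overlapped in every group, so their order cannot be given. An epithelial cadherin and a mesenchymal filament were thus both among the abundant transcripts, in 2i as in serum.

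Fn1 was the fourth member throughout, at 76.9 ± 27.1 and 79.4 ± 26.5 in naïve and 36.9 ± 9.25 and 22.9 ± 4.56 in primed ESCs, WT line first. It overlapped the gene above it in both naïve groups and in neither primed group. Cldn6 was the fifth, far below Fn1 in naïve ESCs (3.76 ± 1.60 and 4.82 ± 0.668) but overlapping it in primed ESCs (23.8 ± 8.68 and 22.8 ± 7.90). The remaining 5 genes had means of 0.133 to 3.05, with Zeb1 the highest of them in every group at 2.23 to 3.05. Below Zeb1, neighbouring genes overlapped in all groups, apart from Twist1 and Snai1 in mutant naïve ESCs. Cdh2 had a mean of 0.904 to 1.57, so that the mean ratio of Cdh1 to Cdh2 per length was 98.4 and 122 in WT and mutant naïve ESCs and 51.7 and 53.0 in primed ESCs.

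**Figure D1:**
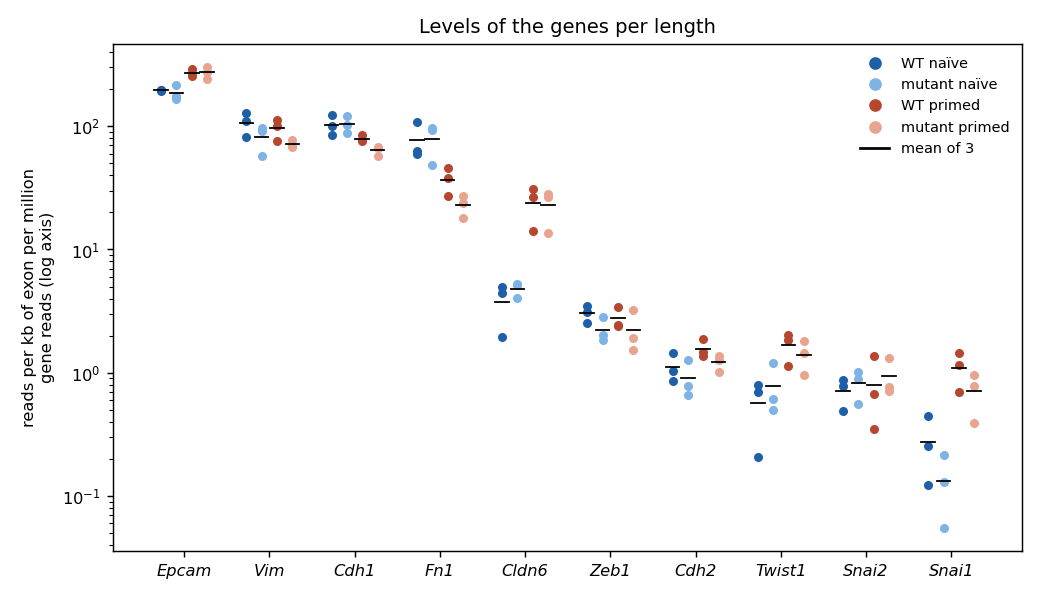
Level of each of the 10 genes in each of the 12 libraries, in RPKM on a log axis, with a colour for each of the 4 groups. Epcam, Vim, Cdh1 and Fn1 stand above the others, and Cldn6 moves up in primed ESCs.

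The comparison of media asked how the 10 genes differ between naïve and primed ESCs. In the WT line 5 of the 10 genes passed the test (1 higher and 4 lower in naïve ESCs), where 35.9% of all genes tested did. In the mutant line 5 of the 10 also passed (2 higher and 3 lower), where 35.2% of all genes did. The members' shares are thus not far from that of the whole transcriptome. The epithelial genes went in both directions, and of the mesenchymal genes only Fn1 passed. Fn1 was higher and Cldn6, Epcam and Snai1 were lower in naïve ESCs of both lines. Snai1 was tested only through its primed libraries, so that it had to differ, and 2 genes were lower without it, while 13.7% of all genes were higher and 12.4% lower in both. The median difference of the 10 genes, naïve minus primed, was -0.19 in the WT and -0.23 in the mutant line, beside 0.01 and -0.01 for all genes.

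**Figure D2:**
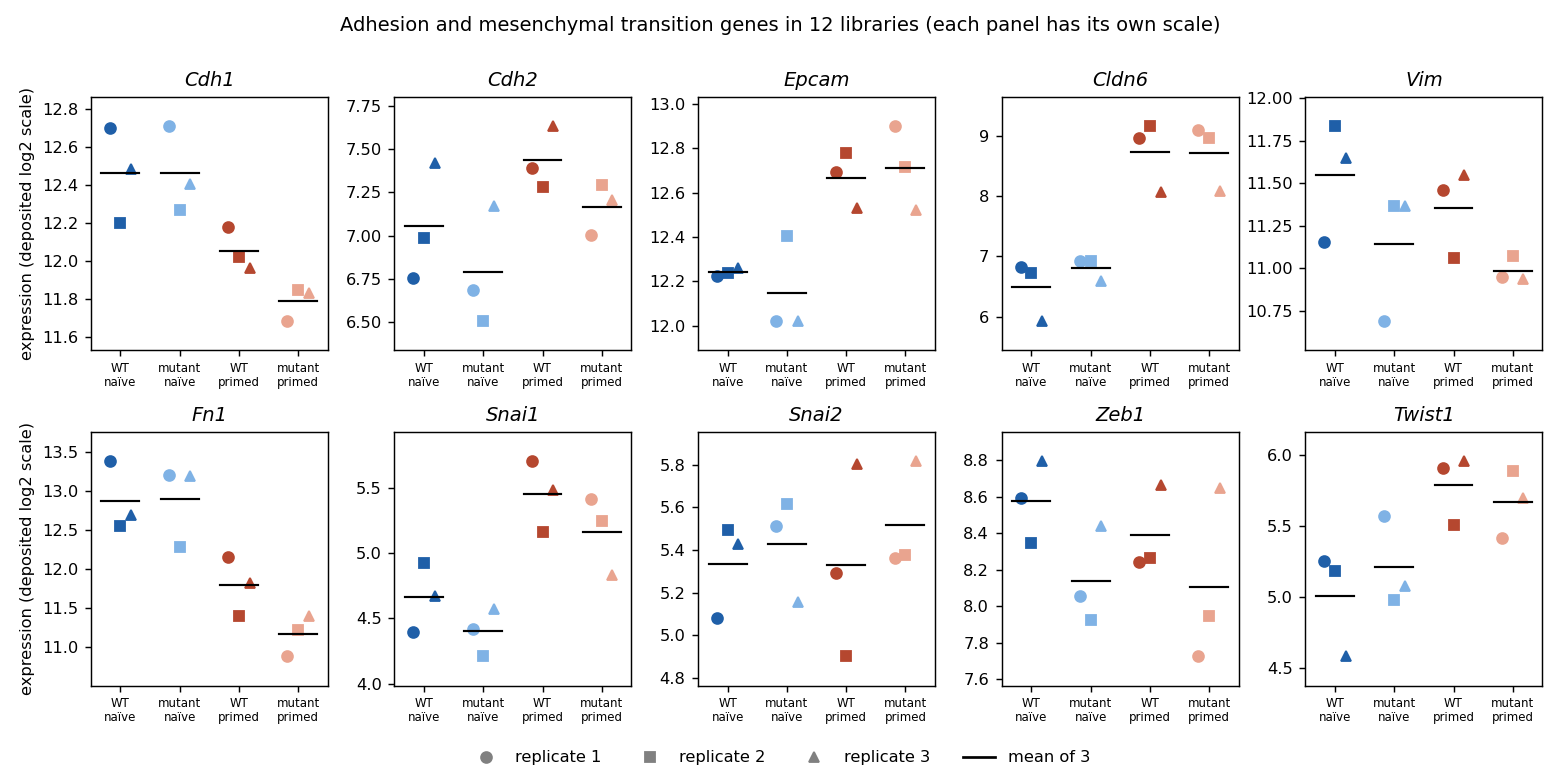
Deposited log2 value of each of the 10 genes in each library, one panel per gene, with the group mean as a bar. The naïve and primed libraries lie apart for Cdh1, Cldn6, Epcam, Fn1 and Snai1 in both lines and overlap for Cdh2, Snai2, Vim and Zeb1. For Twist1 they lie apart in the WT line only.

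Cdh1 (chr8:109127251-109194146, plus strand, mm9), which encodes E-cadherin, was the epithelial gene with more transcript in naïve ESCs. Its log2 values were 12.70, 12.20 and 12.49 in WT naïve and 12.18, 12.02 and 11.97 in WT primed ESCs, from replicate 1 to 3. In the mutant line they were 12.71, 12.27 and 12.41 in naïve and 11.69, 11.85 and 11.83 in primed ESCs. Every naïve library lay above every primed library of its line, as for 25.5% of all genes in the WT and 22.3% in the mutant line. The difference was 0.67 (SE 0.16, adjusted p = 0.00456, limma) in the mutant line, where the mean normalised count was 1.61-fold higher, and 0.41 (95% interval 0.06 to 0.75, adjusted p = 0.0611, limma) in the WT line, where it did not pass. The test of the difference between these effects did not pass either (-0.27, 95% interval -0.75 to 0.22, adjusted p = 0.976, limma).

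Epcam (chr17:88035319-88050446, plus strand), an adhesion molecule of epithelia and of pluripotent cells, went the other way from Cdh1. It measured 12.22, 12.24 and 12.26 in WT naïve and 12.69, 12.78 and 12.53 in WT primed ESCs. In the mutant line it measured 12.02, 12.40 and 12.02 in naïve and 12.90, 12.72 and 12.52 in primed ESCs. The primed libraries were above the naïve libraries in both lines without overlap, as for 24.5% of all genes in the WT and 21.2% in the mutant line. The mean normalised count was 1.35-fold higher in WT primed and 1.48-fold higher in mutant primed ESCs, with log2 differences of -0.43 (SE 0.16, adjusted p = 0.0416, limma) and -0.56 (SE 0.16, adjusted p = 0.0102). In the WT line the call was lost without any single one of the 6 libraries (adjusted p = 0.0562 to 0.124), whereas in the mutant line it held without each of them.

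Cldn6 (chr17:23816332-23819413, plus strand), a claudin of embryonic epithelia, had the largest difference of the 10 genes in both lines. It measured 6.83, 6.73 and 5.93 in WT naïve against 8.97, 9.17 and 8.07 in WT primed ESCs. The mutant line gave 6.93, 6.92 and 6.59 in naïve against 9.11, 8.97 and 8.08 in primed ESCs. Each primed library exceeded each naïve library by more than 1, although replicate 3 was the lowest of its group in 4 of 4 groups, as for 3.36% of all genes tested. The mean normalised count was 6.20-fold higher in WT primed and 4.76-fold higher in mutant primed ESCs (log2 differences -2.24, SE 0.31, adjusted p = 4.65e-05, and -1.91, SE 0.31, adjusted p = 2.28e-04, limma). The gene had 35 to 455 reads per library.

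**Figure D3:**
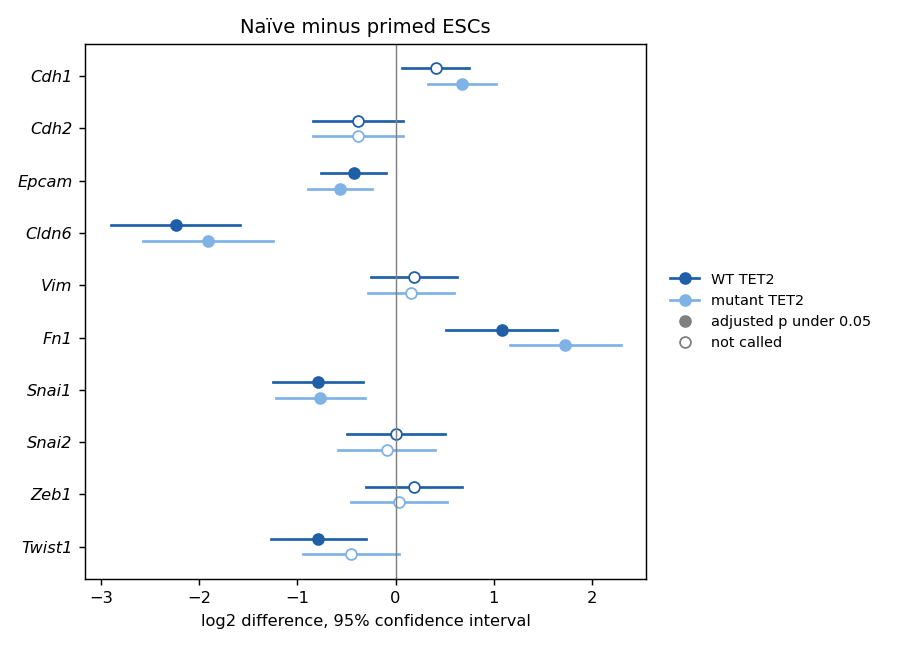
Difference between naïve and primed ESCs of each of the 10 genes on the log2 scale, with the 95% interval from limma, for the WT and the mutant rescue line. Cldn6 lies furthest below 0 and Fn1 furthest above 0 in both lines.

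Among the mesenchymal genes, Fn1 (chr1:71632094-71699774, minus strand), which encodes the matrix protein fibronectin, was higher in naïve ESCs. Its values were 13.38, 12.54 and 12.69 in WT naïve and 12.15, 11.40 and 11.82 in WT primed ESCs. They were 13.20, 12.28 and 13.19 in mutant naïve and 10.88, 11.22 and 11.39 in mutant primed ESCs. All naïve libraries lay above all primed libraries. The mean normalised count was 2.15-fold higher in the WT line (log2 difference 1.08, SE 0.27, adjusted p = 0.00496, limma) and 3.45-fold higher in the mutant line (1.73, SE 0.27, adjusted p = 1.31e-04), and the effects of the lines did not differ by the test (-0.65, 95% interval -1.45 to 0.15, adjusted p = 0.976). Fibronectin is also made by primitive endoderm, whose marker list summed to 25.8 to 65.2 RPM in naïve and 25.1 to 47.2 in primed ESCs, most of it from Lama1, with Foxa2 at 0 to 5 reads. Other genes of the list went against Fn1, since Dab2 was lower in naïve ESCs (-1.47 and -0.85, adjusted p = 2.28e-04 and 0.0127, limma) and Sox7 had 0 to 1 reads in naïve and 5 to 41 in primed libraries. Within each naïve group the list was highest in the library where Fn1 was highest. Its sums were 65.2, 25.8 and 27.0 in WT and 56.1, 26.1 and 52.4 in mutant naïve ESCs, from replicate 1 to 3. In mutant primed ESCs both the list (39.8) and Fn1 were highest in replicate 3. In WT primed ESCs the list was highest in replicate 3 (47.2) and Fn1 in replicate 1. The fibroblast list was higher in naïve ESCs without overlap, as Fn1 was, with 4 of its 8 markers at 0. Its main genes did not move together. Thy1 had 26 to 100 reads in naïve and 8 to 15 in primed libraries. Lum had 4 to 20 reads in mutant naïve and 23 to 40 in mutant primed libraries, and 9 to 52 and 10 to 35 in the WT line. The part of either list in the Fn1 values was not tested. Here, as for every gene in bulk RNA, more cells that transcribe it and more RNA per cell cannot be told apart.

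Vim (chr2:13495554-13504453, plus strand), which encodes the intermediate filament vimentin, did not pass. It measured 11.16, 11.84 and 11.64 in WT naïve against 11.46, 11.06 and 11.54 in WT primed ESCs, and 10.69, 11.37 and 11.37 in mutant naïve against 10.95, 11.07 and 10.93 in mutant primed ESCs. The media overlapped in both lines, with differences of 0.19 (95% interval -0.25 to 0.63, adjusted p = 0.504, limma) and 0.16 (adjusted p = 0.591).

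Cdh2 (chr18:16747386-16967755, minus strand), which encodes N-cadherin, the cadherin that replaces E-cadherin in migrating mesoderm and in neural tissue, did not pass either. Its values were 6.75, 6.99 and 7.42 in WT naïve and 7.39, 7.28 and 7.63 in WT primed ESCs. In the mutant line they were 6.69, 6.51 and 7.17 in naïve and 7.004, 7.30 and 7.20 in primed ESCs. The groups overlapped in both lines and the difference was -0.38 in each (95% interval -0.84 to 0.07 in the WT line, adjusted p = 0.177 and 0.185, limma). With 60 to 324 reads per library, a difference of this size was not resolved.

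Among the transcription factors, Snai1, Snai2 and Twist1 had the lowest mean log2 values of all members. Per length, the mean of Zeb1 was above that of Cdh2 in every group. The mean of Twist1 was above that of Cdh2 in primed ESCs only, with overlap. Snai1 (chr2:167363695-167368314, plus strand), the factor that represses Cdh1 at gastrulation, had 2, 9 and 5 reads in WT naïve, 3, 1 and 7 in mutant naïve, 19, 11 and 40 in WT primed and 14, 14 and 7 in mutant primed ESCs. On the deposited scale, which corrects for depth, these were 4.39, 4.92 and 4.67, then 4.42, 4.21 and 4.57, then 5.71, 5.16 and 5.49, and then 5.42, 5.24 and 4.84. The primed libraries were above the naïve libraries in both lines. The mean normalised count was 3.84-fold higher in WT primed and 5.47-fold higher in mutant primed ESCs, and the log2 differences of -0.79 (SE 0.21, adjusted p = 0.00916, limma) and -0.77 (SE 0.21, adjusted p = 0.0112) are smaller because the transformation compresses low counts. Both naïve means (4.66 and 4.40) were under the level of 4.81 that a gene needed on average to be tested, so Snai1 was tested only through its primed libraries. The WT call was lost without WT primed replicate 1 (adjusted p = 0.0537), and the mutant call without mutant naïve replicate 2 (0.0551) or mutant primed replicate 1 (0.0508).

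Twist1 (chr12:34642536-34644682, plus strand), a mesoderm and neural crest factor, had 13, 14 and 4 reads in WT naïve and 24, 18 and 70 in WT primed ESCs, with log2 values of 5.25, 5.18 and 4.58 against 5.91, 5.50 and 5.95. The WT groups did not overlap and the difference was -0.78 (SE 0.23, adjusted p = 0.0144, limma), a 2.86-fold higher mean normalised count in primed ESCs. The mutant line had 28, 9 and 20 reads in naïve and 14, 32 and 26 in primed ESCs, and these groups overlapped on the log2 scale (5.57, 4.98 and 5.07 against 5.42, 5.89 and 5.69, difference -0.46, adjusted p = 0.135). The WT call was lost without WT naïve replicate 3 (adjusted p = 0.0692), WT primed replicate 1 (0.0580) or WT primed replicate 3 (0.0616), and without all 4 libraries numbered 3 (0.179).

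Snai2 (chr16:14705945-14709488, plus strand), also named Slug, did not differ detectably at 7 to 59 reads per library. Its log2 values were 5.08, 5.50 and 5.43 in WT naïve, 5.51, 5.61 and 5.16 in mutant naïve, 5.29, 4.90 and 5.80 in WT primed and 5.36, 5.38 and 5.82 in mutant primed ESCs. The media overlapped, with differences of 0.00 (adjusted p = 0.993, limma) and -0.09 (adjusted p = 0.798).

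Zeb1 (chr18:5591858-5775465, plus strand), a zinc finger repressor of Cdh1, had 134 to 713 reads per library. It measured 8.59, 8.35 and 8.80 in WT naïve, 8.06, 7.93 and 8.44 in mutant naïve, 8.24, 8.26 and 8.66 in WT primed and 7.73, 7.95 and 8.65 in mutant primed ESCs. Replicate 3 was the highest library in 4 of 4 groups, which holds for 2.97% of all genes tested, and the media overlapped (differences 0.19, adjusted p = 0.550, and 0.03, adjusted p = 0.924, limma). The spans of Fn1, Zeb1 and Cdh2 each overlap that of another gene of the table on the opposite strand (Apol7d, Gm10125 and Gm15485). Whether exons of these pairs overlap was not examined. Reads from shared exons could not be separated in these libraries, which kept no strand.

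Marker lists of differentiated cells also moved with the medium. The neural list summed to 49.7 to 88.1 RPM in naïve and 168 to 233 in primed ESCs, the trophoblast list to 2.08 to 7.06 and 7.81 to 16.7, and the mesoderm and streak list to 6.66 to 10.7 and 11.8 to 19.5. Members of the last list went both ways, with Eomes lower in naïve ESCs (-1.62 and -1.39, adjusted p = 4.52e-06 and 2.08e-05, limma), Hand1 at 0 to 2 reads in naïve and 10 to 46 in primed libraries, T at 2 to 17 and 0 to 5, and Gsc higher in naïve ESCs of both lines. Hand1 is also a member of the trophoblast list, so both sums count it. Of the trophoblast markers, Ascl2 had the most reads in every primed library, at 16 to 43 reads in naïve and 44 to 146 in primed libraries. Cdx2 was at 0 to 2 reads in naïve and 2 to 16 in primed libraries. Krt7 went both ways, at 6 to 7 reads in WT naïve and 21 to 37 in WT primed libraries. In the mutant line it had 15 to 36 reads in naïve and 5 to 12 in primed libraries. Cldn6, Epcam and Snai1 were higher in primed ESCs like the sums of these lists, and the part of differentiated cells in their values was not tested.

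The comparison of rescue lines asked whether the 10 genes differ between the WT and the mutant TET2 line after SETDB1 depletion. With a single line of each, the line and the catalytic activity of TET2 cannot be told apart. None of the 10 passed in naïve ESCs, where 14 genes of the whole table did (0.0987%, and 36 genes but still 0 members with the replicate as a block), and none had an unadjusted p under 0.05 in limma, where 13.3% of all genes did. None of the 10 passed in primed ESCs, where 36 genes did (0.254%), and 1 had an unadjusted p under 0.05, where 16.2% of all genes did. This was Fn1, at 12.15, 11.40 and 11.82 in WT and 10.88, 11.22 and 11.39 in mutant primed ESCs, a difference of 0.63 (95% interval 0.06 to 1.19, unadjusted p = 0.0315, adjusted p = 0.275, limma). The Fn1 groups did not overlap, though only narrowly, which holds for 22.4% of all genes, and by exact permutation (two-sided) p was 0.1, which is the lower bound with 3 libraries a side. Cdh1 was also without overlap in primed ESCs (difference 0.27, 95% interval -0.08 to 0.61, adjusted p = 0.429, limma) and differed by 0.00 in naïve ESCs (95% interval -0.34 to 0.35).

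**Figure D4:**
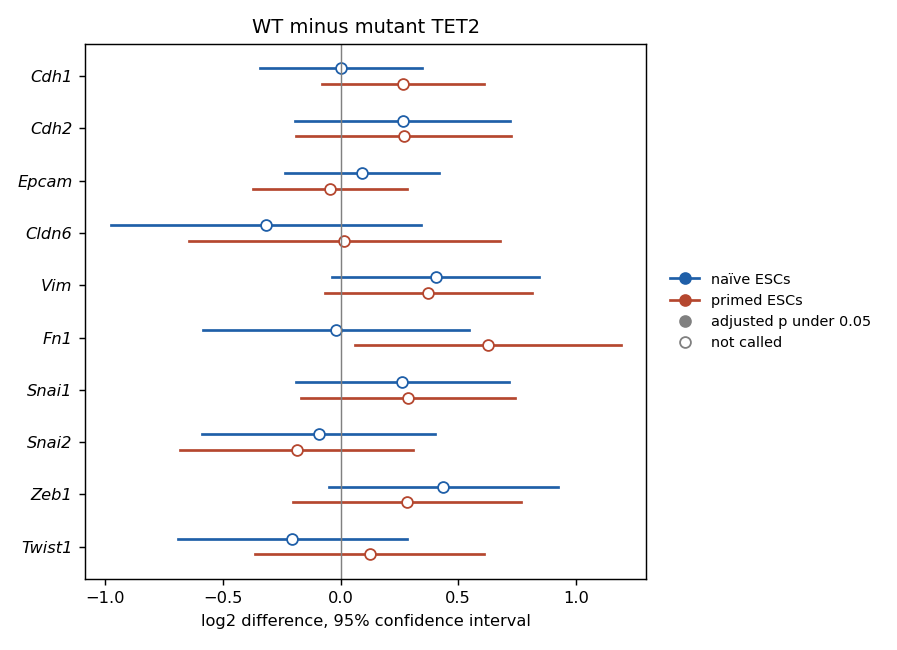
Difference between the WT and mutant rescue lines of each of the 10 genes on the log2 scale, with the 95% interval from limma, in naïve and in primed ESCs. No gene passed the test in either medium.

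In naïve ESCs none of the 10 genes was free of overlap between lines, as 16.8% of all genes were, but 3 genes (Vim, Zeb1 and Cdh2) were higher and 1 (Cldn6) was lower in the WT than in the mutant line in 3 of 3 same-numbered pairs, as 22% of all genes were higher and 21.8% lower. The differences were 0.40 for Vim (95% interval -0.04 to 0.84, adjusted p = 0.404, limma), 0.44 for Zeb1 (adjusted p = 0.413), 0.26 for Cdh2 and -0.32 for Cldn6 (95% interval -0.98 to 0.34). Since the numbers paired the naïve libraries, the fit with the replicate as a block was also made, and it gave adjusted p-values of 0.179 for Vim, 0.160 for Zeb1, 0.412 for Cdh2 and 0.319 for Cldn6, so none passed. In primed ESCs the differences were 0.37 for Vim (adjusted p = 0.386) and 0.28 for Zeb1. The test of whether the rescue effect differed between media passed for none of the 10 genes and none of all 14185 (0%). Of all genes, 489 (3.45%) had an unadjusted p under 0.05 in limma. The 95% intervals were wide, at -1.45 to 0.15 for Fn1 and -1.27 to 0.60 for Cldn6, so such a difference was not excluded.

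Genes of the surrounding pathways were taken from lists and read in the same fit, as genes that passed in both lines with the same sign. Of 11 genes of the cadherin-catenin junction, 1 was higher and 2 were lower in naïve ESCs. The lower ones were the catenins Jup (plakoglobin, -1.29 in WT and -1.30 in mutant, adjusted p at most 7.26e-04, limma) and Ctnnd1 (p120 catenin, -1.12 and -0.79), and the higher one was Mllt4 (afadin, 0.71 and 1.00), which links nectins to actin. Of 17 tight junction genes, 1 was higher and 6 were lower, the latter including the polarity gene Crb3 (-1.34 and -0.93), while Ocln (occludin) was higher (1.19 and 1.01). The lower genes were 35.3% of the tight junction list and 18.2% of the cadherin-catenin list, beside 12.4% of all genes. The median difference over all tested genes of a list was -0.25 in the WT and -0.18 in the mutant line for the cadherin-catenin junction and -0.74 and -0.30 for the tight junction, beside 0.01 and -0.01 over all genes.

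Of 11 desmosome and simple epithelial keratin genes, 5 were lower in naïve ESCs (45.5%, beside 12.4% of all genes) and none was higher (0%, beside 13.7%). Of the 5, Krt19 was tested only through its primed libraries. Among them were the keratins Krt18 (-2.38 and -1.63) and Krt8 (-2.30 and -1.52), whose processed pseudogenes make their counts uncertain. Of 13 epithelial regulators, 7 were lower (53.8%) and 1 was higher (7.69%). The splicing factor Esrp1, which sets the epithelial isoforms of many transcripts, had the largest difference (-3.50 and -3.57, adjusted p = 1.20e-08 and 1.14e-08, limma), followed by the grainyhead factor Grhl1 (-2.38 and -1.73), and Klf5 was higher (0.81 and 0.94). The medians were -0.87 and -0.15 for desmosome and keratin genes and -1.06 and -0.54 for epithelial regulators, WT line first, beside 0.01 and -0.01 over all genes.

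The mesenchymal matrix and integrin lists also had more genes lower than higher in naïve ESCs. Of 16 genes of mesenchymal matrix and cytoskeleton, 9 were lower (56.2%, beside 12.4% of all genes) and 1 was higher (6.25%, beside 13.7%) in naïve ESCs. Of the 9, Col5a2, Thbs1 and Loxl2 had naïve means under the level needed for testing and were tested only through primed libraries, where they had to be higher, as were 7.4% of all genes that were lower in both lines. The collagen Col5a2 differed by -2.95 and -1.59, and the matrix gene Thbs1 had 0 reads in all 6 naïve libraries and was at least 49.4-fold higher in WT primed and 28.8-fold higher in mutant primed ESCs, taken against 3 reads over the group. Thy1, a surface glycoprotein, was higher in naïve ESCs (0.85 and 1.40). Of 11 integrins, 5 were lower (45.5%) and 1 was higher (9.09%), with Itga9 at -2.37 and -2.01, and Itgav, a subunit of fibronectin receptors, at 1.19 and 1.21. Itga1 had 0 reads in mutant naïve ESCs and was at least 79.3-fold higher in mutant primed ESCs, and it too was tested only through primed libraries. Of 6 other transition factors, Snai3 was lower (-1.93 and -1.29) and Gsc was higher (0.78 and 1.11). That is 16.7% in each direction, not far from the shares of all genes. The medians were -1.33 and -1.18 for matrix and cytoskeleton, -1.20 and -0.49 for integrins and 0.68 and 0.50 for the transition factors, WT line first, beside 0.01 and -0.01 over all genes. Between rescue lines the only gene of these pathway lists that passed was Inadl (PATJ, a tight junction scaffold), which was higher in WT than in mutant primed ESCs (8.91 ± 0.28 against 7.50 ± 0.25, SD, n = 3, difference 1.41, SE 0.19, adjusted p = 0.00204, limma).

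**Figure D5:**
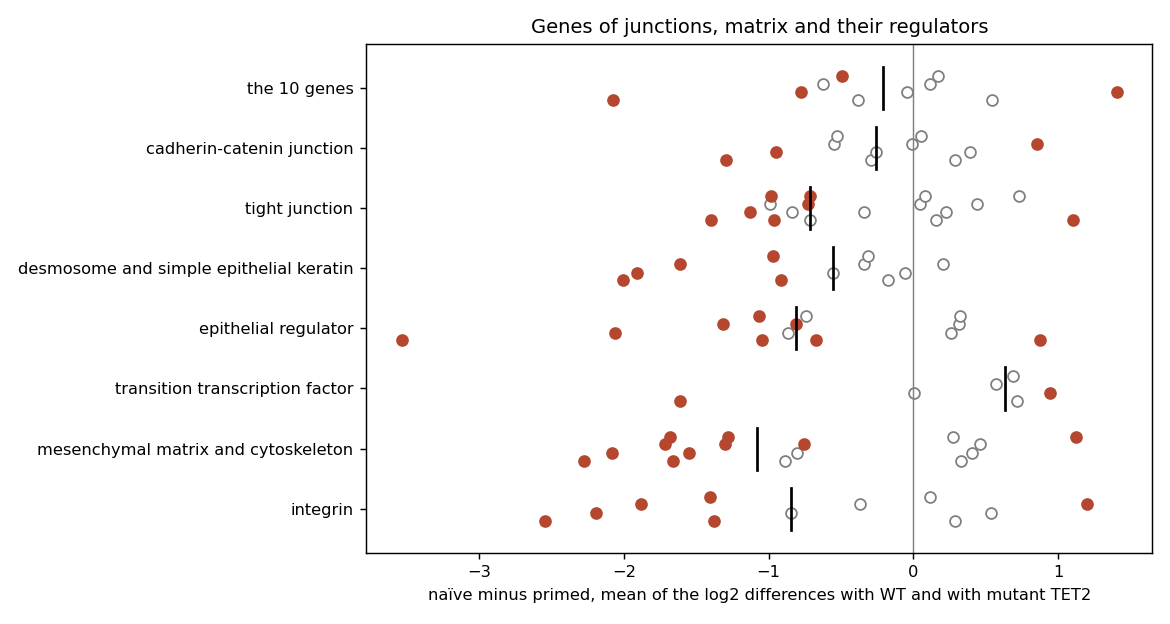
Difference between naïve and primed ESCs of each tested gene of the pathway lists and of the 10 genes, on the log2 scale. Each point is the mean of the differences in the WT and the mutant rescue line. Filled points are genes that passed in both lines with the same sign, and a bar marks the median of each list. In 6 of the 7 lists more genes passed as lower than as higher in naïve ESCs.

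Over the 12 libraries, the genes whose deposited values were most like those of Cdh1 were Abhd2 (Pearson's r = 0.97), Fn1 (0.96) and Mllt4 (0.95), and those most like Vim were Tmem8 (0.88), 5830418P13Rik (0.87) and Trim8 (0.86). Epcam was related to Cldn6 (r = 0.90) and inversely to Cdh1 (r = -0.84). With the group means removed these became 0.59 and -0.40, while Vim with Cdh1 went from 0.09 to -0.74. These values describe libraries that share a medium, a rescue line and a replicate number, and no p is given for them.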

How the data were processed

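Poly(A) RNA from 12 libraries was sequenced without strand information (single-end). The authors trimmed reads with Trim Galore 0.3.3, aligned them to mm9 with TopHat 2.0.9 so that a read with several positions went to a random one, counted reads per gene and deposited log2 values after the variance-stabilising transformation of DESeq2 (version not given in the sources used here). These include size factors and compress differences of scarce genes. A table of repeat classes was not used here. The transformation was inverted, and 100% of values were whole reads within 0.05.

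Groups came from the labels. All 12 libraries entered one limma 3.58.1 fit (R 4.3.3) of 4 groups with a variance trend and Benjamini-Hochberg adjustment over the 14185 genes with a mean of 4.81 or more, which is 1 above the value of a gene without reads, with calls at an adjusted p under 0.05. Exact permutation tests (two-sided, smallest p 0.1) were run for single genes. Tables were made in Python 3.11.15 (numpy 2.4.6, pandas 2.3.3) and figures in matplotlib 3.10.9, and the procedure was tested on simulated data. Gene positions and exon lengths came from GENCODE vM1 (mm9).

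Within a medium, same-numbered WT and mutant libraries deviated together in naïve (correlations 0.586, 0.300 and 0.385, over genes) but not in primed ESCs (0.161, -0.0652 and 0.189), so the replicate numbers of the labels were taken to pair naïve libraries only.

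The 10 genes and the lists were chosen with earlier results of these data known. From each list, the genes named are those with the 2 largest differences per direction among genes called in both lines, every called gene between rescue lines, and the 3 genes most like Cdh1 and Vim. An item that this rule names is not reported here. Leaving out the libraries numbered 3 and a block over all groups were added after the values were seen, as was the remark on replicate 3. Reads are not independent molecules, and depth limits Snai1, Snai2 and Twist1 most.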

Additional observations from a re-analysis of the deposited data

How the results depend on the processing

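The alternatives changed no direction of a member that had passed or passed under them. Cldn6 and Fn1 passed in both lines in all 17 settings, Cdh1 and Epcam in the mutant line in all 17, and Cdh1 in the WT line in 2 of 17. No scaling moved the median of all genes by more than 0.1. Epcam in the WT line also did not pass without the filter on low values (adjusted p = 0.0536), without the variance trend (0.0553) or with the replicate block (0.0671, media paired by number). The replicate block left 0 members between rescue lines in either medium. A filter at 3 above the lowest value removed Snai1, Snai2 and Twist1, which then have no value. The numbers did not pair the primed libraries or the media.

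In the WT line, 5 members differed between media, and 3 did under the stricter filter, 3 at an adjusted p under 0.01 (3096 genes), 2 when a difference over 1 was also required (1745 genes), and 2 to 5 with a library left out (2 without WT primed replicate 1). The mutant line gave 3 members (2989 genes) and 2 members (1636 genes) at those thresholds. Between rescue lines in naïve ESCs the 14 genes became 9 without the filter, 5 under the stricter filter, 36 with the replicate block, 9 with the 6 libraries alone, 6 at an adjusted p under 0.01, and 5 to 14 with a library left out. In primed ESCs the 36 genes became 23 under the stricter filter, 209 with the replicate block, 18 with the 6 libraries alone, 13 at an adjusted p under 0.01, 23 without the libraries numbered 3, 88 with a block over all groups, and 12 to 82 with a library left out (82 without mutant primed replicate 3). The interaction gave 0 to 1 gene with a library left out (1 without WT naïve replicate 1). The cause of these changes was not tested.

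Differences near 0 that did not pass changed sign as follows. With median centring they were -0.020 for Snai2 between media in the WT line, -0.017 for Cdh1 between naïve lines and -0.0085 for Cldn6 between primed lines. With quantile normalization, Zeb1 between media in the mutant line was -0.0091, between naïve lines Cdh1 was -0.0044, Fn1 0.019 and Snai2 0.023, and between primed lines Epcam was 0.094 and Cldn6 -0.0027. With limma-voom on the recovered reads, Snai2 between media in the WT line was -0.10, Cdh1 between naïve lines -0.0033 and Cldn6 between primed lines -0.036. Without the libraries numbered 3, Snai2 between media in the mutant line was 0.19, and between naïve lines Cdh1 was -0.039 and Fn1 0.22. With a library left out, the media differed by -0.21 to 0.24 for Snai2 in the WT line, and by -0.18 to 0.058 for Snai2 and -0.16 to 0.30 for Zeb1 in the mutant line. Naïve lines then differed by -0.12 to 0.13 for Cdh1, -0.33 to 0.14 for Fn1, -0.23 to 0.033 for Snai2 and -0.33 to 0.0061 for Twist1. Primed lines differed by -0.14 to 0.048 for Epcam, -0.30 to 0.35 for Cldn6, -0.42 to 0.028 for Snai2 and -0.0019 to 0.26 for Twist1.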
